A study of Mus musculus with 49 samples.

Results

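Leukocytes of peripheral blood taken late after K/BxN serum were compared with leukocytes taken on day 0. The late group was formed by title and pools 8 arrays: 3 at day 7, 3 at day 12 and 2 at day 18 after serum transfer. The comparison group is the 3 blood arrays of day 0. These 11 arrays belong to a series of 49 Affymetrix mouse arrays that also covers whole ankle and cells of the synovial fluid. All mice were 6-week-old B6 males. Red cells were lysed before the RNA of the remaining blood cells was taken up in Trizol, and each blood sample is labelled a biological replicate. The late samples came from mice given arthritogenic serum. The labels do not say how many animals gave each sample. The labels word the RNA amplification in more than 1 way: all 8 late samples by in vitro transcription, day 0 replicates 2 and 3 by repeated in vitro transcription, and day 0 replicate 1 by the same kit with neither phrase. A difference between late and day 0 therefore cannot be told apart from a difference in that preparation, as far as the wording reflects one.

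K/BxN serum holds autoantibodies against glucose-6-phosphate isomerase. Transferred to a healthy mouse, it causes joint inflammation that needs neutrophils, complement, Fc receptors and interleukin 1. Neutrophils leave the bone marrow, circulate for a short time and enter the joint along chemokines that bind their receptor CXCR2. Blood leukocytes are a mixture of these neutrophils with monocytes, lymphocytes and rarer cells. In such a bulk sample, fewer cells of a type and less RNA per cell cannot be told apart.

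The arrays carried transcripts of the labelled cells. Of the measured markers, 13 of 15 for B cells, 14 of 15 for T cells, 10 of 15 for mature neutrophils and 9 of 14 for monocytes and macrophages lay above background, taken as the 95th percentile of 34 negative control probe sets (log2 6.85) in the higher group mean. None of 8 liver markers and none of 10 skeletal muscle markers did, and 3 of 12 fibroblast and endothelium markers did. Red cell transcripts remained after lysis, with 8 of 14 markers above background. Of 8251 genes, 3347 were above background in blood. No 2 blood arrays were identical. Replicates of 1 day correlated at 0.97 to 0.99 across probe sets, and blood arrays of different days at 0.963 to 0.995.

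No single gene passed the test between blood late after serum and blood on day 0. In a linear model with empirical Bayes moderation (limma), 0 of 8251 genes passed an adjusted p of 0.05, higher or lower (0% in each direction). The smallest adjusted p was 0.525. At an unadjusted p under 0.05, 535 genes were higher late (6.48%) and 178 lower (2.16%), 713 in all (8.64%). With all arrays scaled to the same interquartile range (equal spread), the counts were 324 higher and 248 lower. Leaving out 1 array moved this total of 713 to 300 without day 0 replicate 1, 423 without day 0 replicate 3, 459 without day 12 replicate 3, 458 and 470 without day 18 replicate 1 or 2, and 1413 without day 12 replicate 1. All 8 late arrays lay above all 3 day 0 arrays for 153 genes (1.85%) and below them for 32 (0.388%). Among genes above background, 187 of 3347 (5.59%) had an unadjusted p under 0.05. For the average over the pooled late arrays, the data bound how large a change could have gone unseen. They set no such bound for a single late day. No gene above background had a pooled log2 difference over 1 in size, and the largest was 0.88. For 3196 of these 3347 genes (95.5%) the 95% interval of the difference lay within -1 and 1, that is, within a doubling or halving. The median half-width of the interval was 0.33. Il1b, Cxcl2, Rsad2 and Gimap1, described below, were among the genes whose interval reached past 1 in size.

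The direction of small differences followed the brightness of the gene. The log2 difference was above 0 for 4590 of 8251 genes (55.6%), but for 36.3% of the genes above background and 68.8% of the others. In 5 bands of rising mean signal, the share of genes that were higher late was 73.9%, 62.6%, 45%, 28.5% and 16.8%. The spread of log2 values within an array had an interquartile range of 2.33 to 2.61 in the 8 late arrays (median 2.45), and of 2.51, 2.52 and 2.62 in the day 0 arrays. The mean difference was -0.10 (exact permutation test over arrays, two-sided, p = 0.1515, smallest possible p 0.006061; adjusted over 6 array measures, p = 0.2819). When all arrays were scaled to the same interquartile range, the 5 shares became 40.1%, 57.7%, 50.2%, 41.9% and 58.6%. The counts of genes above 0 in the gene lists below are therefore given under both scalings.

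**Figure D1:**
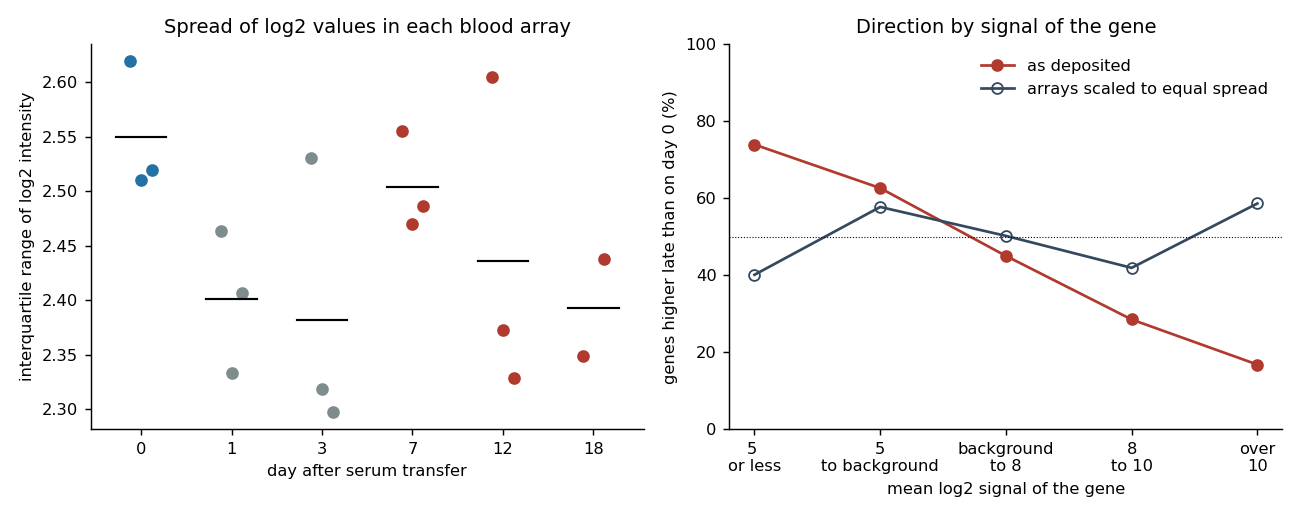
Left, interquartile range of log2 intensity over 8251 genes in each blood array (points) by day after serum transfer, with the mean of each day (bar). Right, percentage of genes higher late than on day 0 in 5 bands of mean log2 signal: as deposited it drops from 73.9% to 16.8%, and with equal spread it stays between 40.1% and 58.6%.

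Mature neutrophil genes were mostly a little higher late, and none passed the test. Of 15 measured, 14 had a difference above 0 (13 with equal spread), against 55.6% of all genes. The median was 0.32 (0.37 with equal spread), against 0.03 over all genes. At an unadjusted p under 0.05, 4 of the 15 were higher and 0 lower, against 6.48% and 2.16% of all genes. Their median stood at 0.46 on day 7, 0.23 on day 12 and 0.34 on day 18. The size of this median rested on single day 0 arrays: it was 0.06 without day 0 replicate 2 and 0.60 without day 0 replicate 3.

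Ly6g, the surface antigen that marks mouse neutrophils, was the 1 gene of this list whose groups did not overlap. Over all genes, 1.85% lay higher late without overlap. Ly6g was not above background, and among such genes 68.8% were higher late. It ranged from log2 5.94 to 6.47 in the 8 late arrays (median 6.25), against 5.75, 5.32 and 5.94 on day 0. Every late array stood above every day 0 array, the closest by less than 0.01. The difference was 0.53 (95% interval 0.20 to 0.86, limma adjusted p = 0.525). S100a9, 1 of the 2 chains of calprotectin, the most abundant protein of the neutrophil cytosol, ranged from 10.76 to 12.53 late (median 11.23), against 10.79, 10.48 and 11.04 on day 0. The groups overlapped, and day 7 replicate 2 stood highest. That array also had the highest 3 prime to 5 prime ratios of the 11, at log2 3.32 for beta-actin and 4.25 for Gapdh, against 1.83, 2.58 and 1.97 for beta-actin and 3.74, 3.87 and 3.74 for Gapdh on day 0; their part in the results was not tested. The difference was 0.64 (95% interval 0.02 to 1.26, adjusted p = 0.525). Its partner S100a8 ranged from 11.19 to 12.80 late (median 11.88), against 11.24, 11.04 and 11.82 on day 0, and day 7 replicate 2 was again highest. Its difference was 0.54 (-0.02 to 1.11). Lcn2, the siderophore-binding granule protein lipocalin 2, was not above background. It ranged from 6.19 to 6.91 late (median 6.52), against 6.13, 6.33 and 6.31 on day 0. Its difference was 0.30 (0.01 to 0.58), and a further probe set of Lcn2 differed by 0.80. Cxcr2, the receptor that guides neutrophils to the joint, lay near the negative controls, at 4.37 to 4.77 late (median 4.62), against 4.79, 4.05 and 4.81 on day 0. Its difference was 0.06 (-0.25 to 0.36). Granule genes made by neutrophil precursors in the bone marrow had a median of 0.14 over 9 measured, with 7 above 0 (6 with equal spread), and a median of 0.08 without day 0 replicate 1. Only 3 of the 9 were above background, and Camp, Ngp and Lcn2 are also members of the mature neutrophil list. Among the granule genes Mpo, myeloperoxidase, differed by 0.15 (-0.13 to 0.43) and Ltf, lactoferrin, by 0.15 (-0.12 to 0.42), neither above background.

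**Figure D2:**
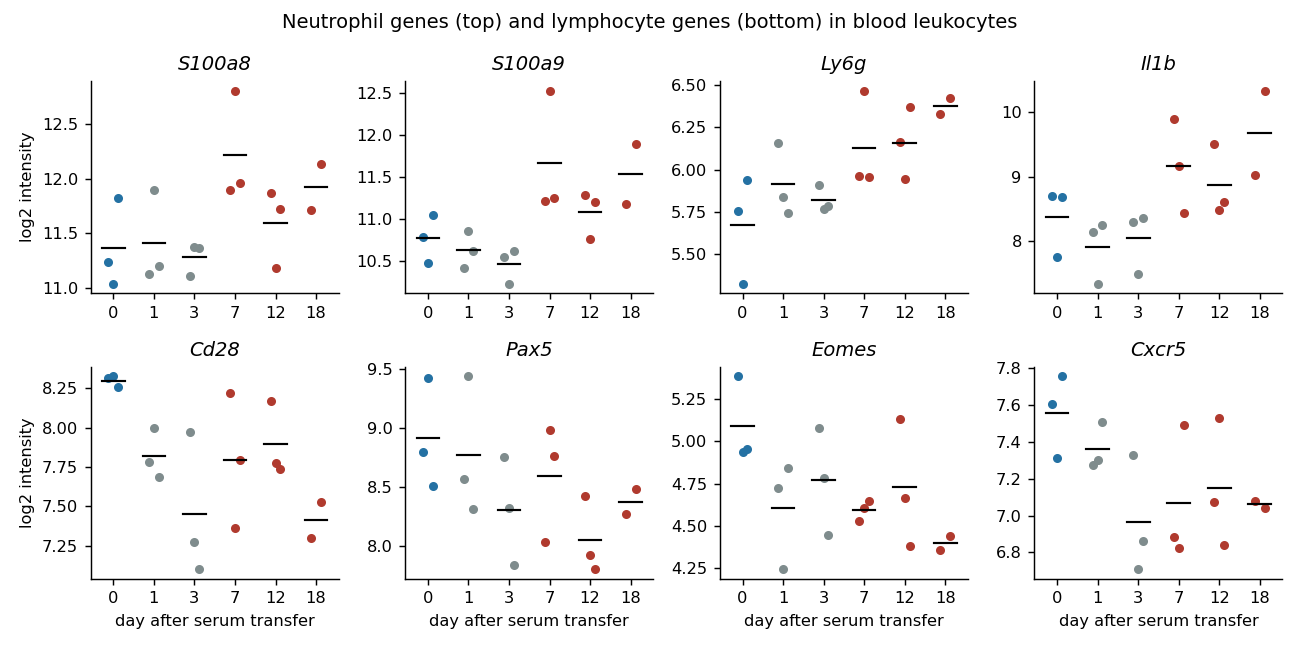
Log2 intensity of 4 neutrophil genes (top row) and 4 lymphocyte genes (bottom row) in every blood array by day after serum transfer, with day means as bars (day 0 blue, days 1 and 3 grey, days 7 to 18 red). Late Ly6g values (5.94 to 6.47) lie above those of day 0 and late Cd28 values (7.303 to 8.22) below them, while the other panels overlap. Ly6g and Eomes were not above background.

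Of 14 inflammatory cytokine genes measured, 13 had a difference above 0 (10 with equal spread), the median was 0.14, and 0 passed the test. Only 3 of the 14 were above background, Il1b among them and Tnf, Il6 and Ifng not. Of all genes not above background, 68.8% had a difference above 0. Il1b, which encodes interleukin 1 beta, was at 8.44 to 10.33 in the late arrays (median 9.10), against 8.70, 7.76 and 8.68 on day 0. Day 18 replicate 2 was the highest and 8 of 8 late arrays stood above the day 0 mean, although the groups overlapped. The difference was 0.80 (95% interval 0.02 to 1.59, adjusted p = 0.525), and 0.49 without day 0 replicate 2, the lowest of the 11 arrays. Il1r2, the decoy receptor that binds interleukin 1 without signalling, was at 9.23 to 10.63 late (median 9.97), against 8.91, 9.50 and 9.68 on day 0. Its difference was 0.55 (-0.09 to 1.18), or 0.32 without day 0 replicate 1, and its further probe set differed by 0.47. Tnf was at 6.00 to 7.18 late (median 6.18), against 5.87, 6.17 and 5.75 on day 0, with a difference of 0.35 (-0.09 to 0.79), or 0.22 without day 18 replicate 2. Day 18 replicate 2 stood apart from the other late arrays, which did not go over 6.36. Il6 lay below the negative control median on every array, and differed by 0.30 (0.08 to 0.52). Ifng, the interferon of T and NK cells, was the 1 member below 0, at 3.49 to 4.43 late (median 3.87), against 4.09, 4.58 and 4.40 on day 0, a difference of -0.46 (-0.84 to -0.07).

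Of the ligands of CXCR2, 3 were measured, and the late arrays disagreed among themselves over 2 of them. Only Cxcl2 had a group mean above background, and Cxcl5 lay near the negative control median (4.40). Cxcl2 was at 10.12, 8.52 and 7.60 on day 7, 8.74, 7.57 and 7.78 on day 12 and 8.31 and 9.82 on day 18, against 7.90, 8.21 and 8.41 on day 0. Day 7 replicate 1 and day 18 replicate 2 stood above the rest, and 3 late arrays lay below every day 0 array. The difference was 0.38 (95% interval -0.64 to 1.40), and 0.25 without day 0 replicate 1, 0.16 without day 7 replicate 1 and 0.20 without day 18 replicate 2. Day 7 replicate 1 had the lowest 3 prime to 5 prime ratios of the 11 arrays, at log2 1.44 for beta-actin and 3.00 for Gapdh. Cxcl1 was at 5.61, 4.48 and 4.505 on day 7, 4.70, 4.83 and 4.61 on day 12 and 5.25 and 7.12 on day 18, against 4.26, 4.88 and 4.40 on day 0. The same 2 arrays were highest. The difference was 0.63 (-0.30 to 1.56), its further probe set differed by 0.75, and the difference was 0.34 without day 18 replicate 2. Cxcl5 stayed between 4.36 and 4.55 late (median 4.45), against 4.43, 4.47 and 4.54 on day 0, a difference of -0.02 (-0.17 to 0.13). Ccrl2, a chemokine-binding receptor of activated neutrophils and macrophages, was also highest in day 7 replicate 1 (9.49) and day 18 replicate 2 (9.32). Its other late values lay between 6.94 and 8.15, against 7.64, 7.97 and 7.41 on day 0. Cxcl2, Ccrl2 and the red cell gene Alas2 were among the 8 genes above background with the widest spread over the late arrays. They are named here for that spread, which was seen in the data. The late standard deviation was 0.97 for Cxcl2 and for Ccrl2, against a median of 0.20 over all genes. Another order of the late arrays was more frequent. Of the 40 genes above background with the widest late spread, 23 had their 2 highest late values in day 7 replicate 1 and day 12 replicate 1. Of these, 2 are described, chosen after their values were seen. Ddx5, an RNA helicase, stood at 9.28 and 8.70 in these and between 6.51 and 7.22 in the other 6 late arrays, against 7.70, 7.68 and 7.79 on day 0. Hnrnpm, a splicing protein, stood at 10.02 and 9.96 in the same pair and between 8.08 and 8.67 in the others, against 9.26, 8.77 and 9.21 on day 0. This pair of arrays had the lowest Gapdh 3 prime to 5 prime ratios of the 11, at log2 3.00 and 3.34. Their interquartile ranges, 2.56 and 2.61, were the widest of the late arrays. The part of these measures in the pattern was not tested.

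Because Cxcl1 and Cxcl2 were high in the same arrays, the 250 bases before each start are shown. Both lie on the plus strand of chromosome 5, chr5:90903649-90903898 for Cxcl2 and chr5:90890995-90891244 for Cxcl1 (RefSeq, GRCm38.p6), and capitals mark the letters of an NF-kB motif, searched on both strands as GGGA and TTTCC parted by any 1 base.
Cxcl2: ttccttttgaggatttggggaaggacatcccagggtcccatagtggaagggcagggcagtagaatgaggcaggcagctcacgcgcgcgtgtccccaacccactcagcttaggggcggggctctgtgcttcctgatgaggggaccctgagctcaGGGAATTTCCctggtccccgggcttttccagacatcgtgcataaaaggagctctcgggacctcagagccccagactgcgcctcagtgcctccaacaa
Cxcl1: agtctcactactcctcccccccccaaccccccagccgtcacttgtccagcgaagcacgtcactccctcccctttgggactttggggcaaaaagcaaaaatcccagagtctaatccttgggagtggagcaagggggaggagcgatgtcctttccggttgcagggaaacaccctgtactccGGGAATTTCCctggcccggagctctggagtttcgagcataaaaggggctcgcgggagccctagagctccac
The motif occurred 1 time in each window, and in 117 of 32851 RefSeq promoter windows of the same length (0.356%). A match describes these letters only.

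**Figure D3:**
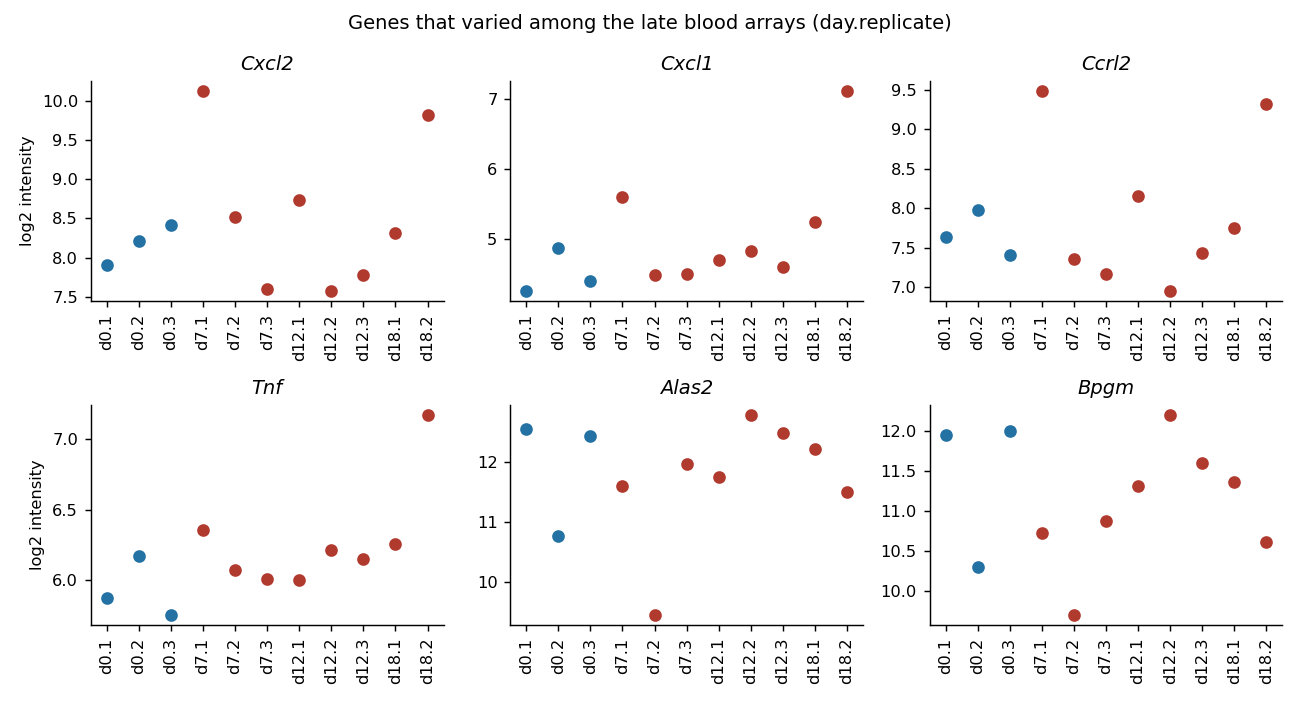
Log2 intensity of 6 genes in the 11 arrays (x axis, day and replicate, with day 0 in blue and late days in red). Cxcl2, Ccrl2 and Cxcl1 are highest in day 7 replicate 1 and day 18 replicate 2, and Alas2 and Bpgm are lowest in day 7 replicate 2.

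B cell genes leaned the other way. Of 15 measured, 1 had a difference above 0 (4 with equal spread), the median was -0.18 (-0.14 with equal spread), and 0 passed the test. Of the 15, 13 were above background, and over all genes above background 36.3% had a difference above 0 and the median was -0.08. Pax5, the transcription factor that keeps B cell identity, ranged from 7.80 to 8.98 late (median 8.34), against 8.80, 9.42 and 8.51 on day 0. The groups overlapped in 2 arrays of day 7, at 8.98 and 8.76. The difference was -0.58 (95% interval -1.11 to -0.05, adjusted p = 0.525), while its second probe set differed by 0.13. It was -0.32 without day 0 replicate 2. Blk, a kinase of the B cell receptor, differed by -0.30 (-0.75 to 0.15), and Cd22, an inhibitory coreceptor, by -0.26 (-0.75 to 0.23). A further probe set of Blk differed by -0.05. Cxcr5, the receptor that takes B cells into follicles, ranged from 6.82 to 7.53 late (median 7.06), against 7.60, 7.31 and 7.76 on day 0, a difference of -0.46 (-0.82 to -0.10). It lay below the day 0 mean in 8 of 8 late arrays.

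T cell genes were mixed. Of 15 measured, 5 had a difference above 0 (6 with equal spread), the median was -0.08 (-0.26 without day 0 replicate 2), and 0 passed. Nearly all of them, 14 of 15, were above background. Over all genes above background 36.3% had a difference above 0 and the median was also -0.08. Cd28, the costimulatory receptor of T cells, ranged from 7.303 to 8.22 late (median 7.76), against 8.31, 8.33 and 8.26 on day 0. All late arrays lay below all day 0 arrays, although day 7 replicate 1 and day 12 replicate 1 did so by less than 0.1. Cd28 was the 1 of the 15 T cell genes without overlap, against 0.388% of all genes lower late without overlap. The difference was -0.56 (95% interval -0.95 to -0.17, adjusted p = 0.525). Cd8a, a chain of the cytotoxic coreceptor, was the T cell gene not above background. It ranged from 5.71 to 7.096 late (median 6.32), against 7.11, 6.45 and 6.86 on day 0, a difference of -0.53 (-1.10 to 0.05). Cd3d and Cd3g, chains of the T cell receptor complex, differed by -0.31 (-0.68 to 0.06) and -0.50 (-1.18 to 0.18). Zap70, the kinase of that complex, differed in the other direction by 0.30 (-0.01 to 0.60), but its 2 further probe sets differed by -0.13 and -0.23. Gimap1, a GTPase that mouse lymphocytes need to survive, had the largest difference of any gene above background. It ranged from 7.15 to 8.40 late (median 7.86), against 9.10, 8.19 and 8.79 on day 0, a difference of -0.88 (-1.43 to -0.33).

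NK and cytotoxic genes had a median of -0.08 over 11 measured, with 5 above 0 under both scalings, and the median turned to 0.04 without day 0 replicate 3, was near 0 without day 7 replicate 1 and was -0.22 without day 0 replicate 2. Eomes, a transcription factor of NK and memory T cells, was not above background. It ranged from 4.36 to 5.14 late (median 4.57), against 5.39, 4.94 and 4.95 on day 0. Day 12 replicate 1 alone reached the day 0 range. The difference was -0.50 (-0.82 to -0.18), and its further probe set differed by -0.43. The chemokine Ccl5 differed by -0.23 (-0.71 to 0.25). Monocyte and macrophage genes had a median of 0.11 over 14, with 10 above 0 (11 with equal spread), and a median of 0.21 without day 0 replicate 1 and 0.01 without day 0 replicate 3. Cd14, the lipopolysaccharide coreceptor, differed by 0.36 (-0.12 to 0.84), and Csf1r, the receptor for the macrophage growth factor, by -0.17 (-0.57 to 0.24). Of the eosinophil, basophil and mast cell genes, 7 of 10 were above 0 (5 with equal spread) and 1 of 10 was above background. Mcpt8, the basophil protease, was not above background. It ranged from 4.93 to 6.28 late (median 5.32), against 4.85, 5.10 and 4.81 on day 0, a difference of 0.52 (0.05 to 0.98), and a further probe set differed by -0.02.

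Red cell transcripts varied within both groups. The list median was -0.01 over 14 genes and ran from -0.07 to 0.10 when 1 array was left out, with 7 genes above 0 (10 with equal spread), and the summed intensity of the list ranged from 18445 to 36655 in the late arrays, against 20699 to 31255 on day 0. Alas2 encodes the first enzyme of haem synthesis in red cell precursors and reticulocytes. It was at 11.59, 9.46 and 11.97 on day 7, 11.75, 12.78 and 12.48 on day 12 and 12.21 and 11.49 on day 18, against 12.54, 10.77 and 12.42 on day 0. Day 7 replicate 2 lay lowest and the groups overlapped. The difference was -0.19 (95% interval -1.37 to 0.99). Bpgm, which makes the 2,3-bisphosphoglycerate of red cells, was lowest in the same array: it ranged from 9.70 to 12.199 late (median 11.09), against 11.95, 10.30 and 12.00 on day 0. Its difference was -0.37 (-1.32 to 0.59). Epb42, a protein of the red cell membrane, was not above background. It did not overlap, at 4.97 to 5.58 late (median 5.196), against 4.96, 4.88 and 4.75 on day 0. Epb42 was the 1 of the 14 red cell genes without overlap, against 1.85% of all genes higher late without overlap. Its difference was 0.41 (0.10 to 0.71), and its further probe set differed by -0.29. The part of red cell RNA in the other differences was not tested.
The upstream window of Alas2 is shown because the gene had the widest spread of the red cell genes described. It is chrX:150547167-150547416 on the plus strand (RefSeq, GRCm38.p6), and capitals mark the letters of the GATA motif, searched as GATAA on both strands.
Alas2: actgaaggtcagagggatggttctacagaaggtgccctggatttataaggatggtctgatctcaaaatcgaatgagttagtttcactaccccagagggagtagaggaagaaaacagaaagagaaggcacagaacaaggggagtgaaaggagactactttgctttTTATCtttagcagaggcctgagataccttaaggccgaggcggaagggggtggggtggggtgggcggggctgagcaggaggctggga
The motif occurred 1 time in this window, and in 7418 of 32851 windows (22.6%).

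The 10 genes of MHC class I and antigen processing all had a difference below 0, but 3 of the 10 were above 0 with equal spread. Their median was -0.14 as deposited and -0.04 with equal spread, beside a median of -0.08 over all genes above background. The median was -0.06 without day 0 replicate 1, -0.28 without day 0 replicate 2 and -0.08 without day 12 replicate 3. H2-K1, a heavy chain of class I, differed by -0.22 (-0.65 to 0.21), and Psmb10, a subunit of the immunoproteasome, by -0.23 (-0.51 to 0.05). Further probe sets of H2-K1 differed by -0.20 and 0.14. MHC class II genes had a median of 0.06, with 6 of 11 above 0 (9 with equal spread), and the median turned to -0.02 without day 0 replicate 3 and -0.04 without day 18 replicate 2. Interferon response genes had a median of -0.07, with 5 of 19 above 0 under both scalings. It turned to 0.04 without day 0 replicate 1 and was -0.21 without day 0 replicate 2. Rsad2, an antiviral enzyme that interferon induces, ranged from 7.37 to 9.26 late (median 8.43), against 9.47, 7.85 and 9.48 on day 0, a difference of -0.67 (-1.50 to 0.17). That difference was -1.21 without day 0 replicate 2, -0.40 without day 0 replicate 1 and -0.39 without day 0 replicate 3. Respiratory chain genes were above 0 in 7 of 28 as deposited and in 14 of 28 with equal spread. Ribosomal protein genes were above 0 in 10 of 21 as deposited and in 20 of 21 with equal spread, so that their direction depended on the scaling. Proliferation genes had a median of -0.03, with 8 of 22 above 0 under both scalings, and the median turned above 0, to at most 0.01, without day 0 replicate 1 or day 7 replicate 2. Top2a, which untangles DNA in dividing cells, was not above background. It ranged from 5.198 to 5.73 late (median 5.54), against 6.15, 5.75 and 5.72 on day 0, a difference of -0.39 (-0.67 to -0.10), or -0.25 without day 0 replicate 1. None of the 39 gene lists had a member past the test, and list medians ran from -0.18 for B cells to 0.38 for the CXCR2 ligands. With 3 ligands measured, that highest median is the value of Cxcl2 alone, and it was 0.16 without day 7 replicate 1.

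**Figure D4:**
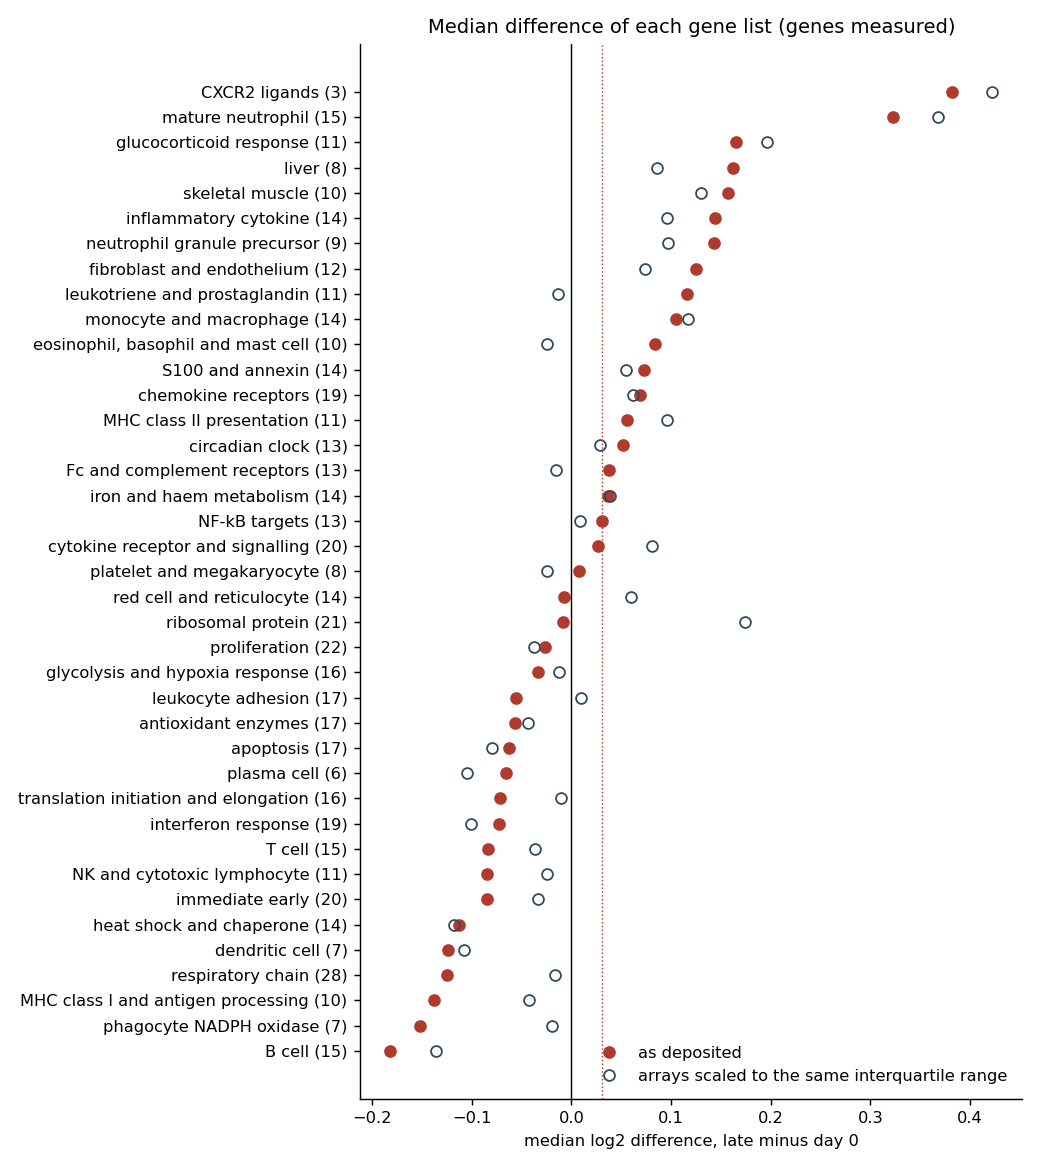
Median log2 difference, late minus day 0, of each of 39 gene lists (number of genes measured in brackets), as deposited (filled) and with arrays scaled to the same interquartile range (open). The dotted line is the median over all genes as deposited (0.03). CXCR2 ligands (0.38) and mature neutrophils (0.32) lie farthest above it and B cells (-0.18) farthest below. The CXCR2 ligand median is the value of Cxcl2, the only 1 of the 3 measured ligands above background.

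The genes with the smallest p, none of which passed, were mostly at the level of the negative controls. The 6 of them that were higher late, Foxa1, Lamb1, Rnf227, Prrx1, Bub1 and Ccn4, had late means between 3.55 and 4.05, under the negative control median of 4.40. Foxa1, a forkhead transcription factor of epithelia, was at 3.49 to 3.79 late (median 3.73), against 3.35, 3.38 and 3.29 on day 0, a difference of 0.35 (95% interval 0.19 to 0.50, adjusted p = 0.525). A difference between values of this size says little about expression. The 6 that were lower were Pabpn1, Rasd1, Timm22, 2700097O09Rik, Nmb and Triap1, and the late arrays of each lay below its day 0 arrays. Over all genes, 0.388% did so. These 6 were picked by p in the same arrays, so their separation is no further support. Pabpn1, which binds poly(A) tails in the nucleus and was the 1 of these above background, was at 7.77 to 8.21 late (median 7.89), against 8.35, 8.52 and 8.51 on day 0. Its difference was -0.52 (-0.78 to -0.26). Rasd1, a Ras-like protein induced by glucocorticoids, was at 4.68 to 5.66 late (median 5.30), against 6.06, 5.78 and 6.15 on day 0, a difference of -0.76 (-1.19 to -0.34).

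Restricted to genes above background, a rule added after the values were seen, the 6 higher ones with the smallest p were Dpep3, Egr1, Cyb561, Zfp94, Acads and Fggy. Further probe sets differed by 0.18 and 0.40 for Dpep3, 0.16 for Cyb561 and -0.03 for Zfp94. Egr1, an immediate early transcription factor, was at 8.01 to 9.33 late (median 8.58), against 8.17, 7.27 and 7.84 on day 0. Its difference was 0.85 (0.27 to 1.44), and its second probe set differed by 0.26. Acads, a short-chain acyl-CoA dehydrogenase of mitochondria, was at 7.303 to 8.01 late (median 7.60), against 7.05, 7.28 and 7.21 on day 0, a difference of 0.42 (0.12 to 0.72), and its further probe set differed by 0.03. The lower ones were Pabpn1, Gimap1, Dynll2, Tmsb10, Smarce1 and Sema4d. A further probe set of Dynll2 differed by -0.095. Tmsb10, an actin-binding thymosin, was at 6.85 to 7.74 late (median 7.33), against 7.68, 7.93 and 8.08 on day 0, a difference of -0.60 (-0.97 to -0.22). Sema4d, a semaphorin of lymphocytes, was at 7.06 to 7.85 late (median 7.43), against 8.13, 7.78 and 8.12 on day 0, a difference of -0.58 (-0.96 to -0.19).

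Taken singly, no late day had a gene past the test, but with array weights 2238 genes passed at day 12 and 2333 at day 18. These fits used 1 mean per day over all 17 blood arrays and share the day 0 arrays. At an unadjusted p under 0.05 there were 168 genes at day 7 (2.04%; 1.36% higher and 0.679% lower), 513 at day 12 (6.22%; 3.36% higher and 2.86% lower) and 1693 at day 18 (20.5%; 13.4% higher and 7.11% lower), and limma adjustment left 0 on each day. Day 18 rests on 2 arrays. Ly6g differed from day 0 by 0.46 at day 7, 0.49 at day 12 and 0.70 at day 18 (SE 0.18, 0.18 and 0.20). Il1b differed by 0.78, 0.49 and 1.301 (SE 0.43, 0.43 and 0.48). S100a9 differed by 0.89, 0.31 and 0.77 (SE 0.30, 0.30 and 0.34). Without day 18 replicate 1, which leaves 1 array at day 18, Cxcl1 and Tnf passed; both were highest in the array that remained.

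Days 7, 12 and 18 were also compared among themselves. In limma's F test 0 of 8251 genes passed, and 399 (4.84%) had an unadjusted p under 0.05. The smallest p belonged to Cd79b, a signalling chain of the B cell receptor. It was at 10.80, 11.30 and 11.33 on day 7, 10.55, 10.47 and 10.47 on day 12 and 11.48 and 11.36 on day 18, against 11.32, 11.05 and 10.92 on day 0. The day 12 arrays lay below all others of these 11 (F test, adjusted p = 0.8092). Next came Itga6, an integrin chain, at 6.03, 5.87 and 6.29 on day 7, 5.87, 5.74 and 5.57 on day 12 and 5.33 and 5.24 on day 18, against 6.11, 6.22 and 5.89 on day 0. Without day 12 replicate 1, 3 genes passed, among them Cebpb, a transcription factor of granulocyte development, and Sos2, an exchange factor for Ras.

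Against the early blood samples, 6 arrays of days 1 and 3, the late days again had no gene past the test. At an unadjusted p under 0.05, 262 genes were higher late (3.18%) and 94 lower (1.14%), 4.31% in all. The 6 higher genes with the smallest p included 3 named above. Il1r2 averaged 9.91 over the late day means, against 8.75 over days 1 and 3, a difference of 1.17 ± 0.24 (SE; adjusted p = 0.6267). Il1b averaged 9.24 late, against 7.99 early, a difference of 1.25 ± 0.28 (adjusted p = 0.7438). S100a9 averaged 11.43 late, against 10.55 early, a difference of 0.88 ± 0.20 (adjusted p = 0.7438). The others were Capg, an actin-capping protein of macrophages, at 0.51 ± 0.10, Tcf4 at 0.48 ± 0.11 and Ercc3, a helicase of DNA repair, at 0.38 ± 0.09. Among the 6 lower genes were Tmsb10 at -0.53 ± 0.15 and Rasd1 at -0.46 ± 0.15.

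The late change in blood differed from the late change in the ankle. Whole ankles from mice of the same strain, age and sex were profiled at days 7, 12 and 18 (10 arrays) and day 0 (4), with RNA taken by SDS and urea, so tissue and preparation cannot be told apart. In 4 ankle arrays Alb, the liver transcript for albumin, stood at log2 6.39 to 10.65, against at most 5.19 in the others, 3 of the 4 among the arrays compared here. In the fit of both tissues 923 genes (11.2%) changed in the ankle and 0 in blood. The change itself differed for 373 genes (4.52%): 194 were higher in blood relative to ankle (2.35%) and 179 lower (2.17%). At an unadjusted p under 0.05 the shares were 9.99% higher and 8.27% lower. Without the arrays with liver transcripts, an alternative added after seeing the data, 454 genes differed. The count of 373 was 218 without blood day 0 replicate 3, 224 without blood day 0 replicate 1 and 846 without ankle day 0 replicate 2.

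Calprotectin rose in the ankle by 2.90 ± 0.21 for S100a8 and 3.14 ± 0.24 for S100a9, beside differences in blood of 0.54 ± 0.25 and 0.66 ± 0.27 (SE). The difference of blood from ankle was -2.35 ± 0.33 (adjusted p = 2.39e-05) and -2.48 ± 0.36 (adjusted p = 4.23e-05). All 3 measured CXCR2 ligands were lower in blood relative to ankle (log2 difference of the changes): Cxcl1 at -1.90 ± 0.52, Cxcl2 at -1.76 ± 0.48 and Cxcl5 at -2.67 ± 0.42. In blood only Cxcl2 of the 3 was above background, so the blood values of Cxcl1 and Cxcl5 say little about a response there. Without the arrays with liver transcripts the adjusted p of Cxcl1 was 0.05101 and that of Cxcl2 0.06206. Of 25 fits that each left out 1 array, Cxcl1 missed the threshold in 5 and Cxcl2 in 6: both without blood day 0 replicate 1, 2 or 3, blood day 18 replicate 1 or ankle day 0 replicate 3, and Cxcl2 also without ankle day 0 replicate 1. Cxcl5 passed in all 25. In all, 4 of 15 mature neutrophil genes and 6 of 22 proliferation genes were lower in blood relative to ankle, against 2.17% of all genes. Top2a, at -0.39 ± 0.18 in blood, rose by 1.57 ± 0.16 in the ankle, and the difference was -1.97 ± 0.24. Ly6g stood at 0.55 ± 0.14 in blood and 0.28 ± 0.12 in the ankle, and the difference of 0.27 ± 0.18 did not pass (adjusted p = 0.43). Genes named for the smallest p in this comparison included Saa3, a serum amyloid A protein of inflamed tissue, at -5.18 ± 0.36, and Mmp13 and Mmp3, matrix proteases of the joint, at -4.10 ± 0.32 and -3.68 ± 0.30.

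**Figure D5:**
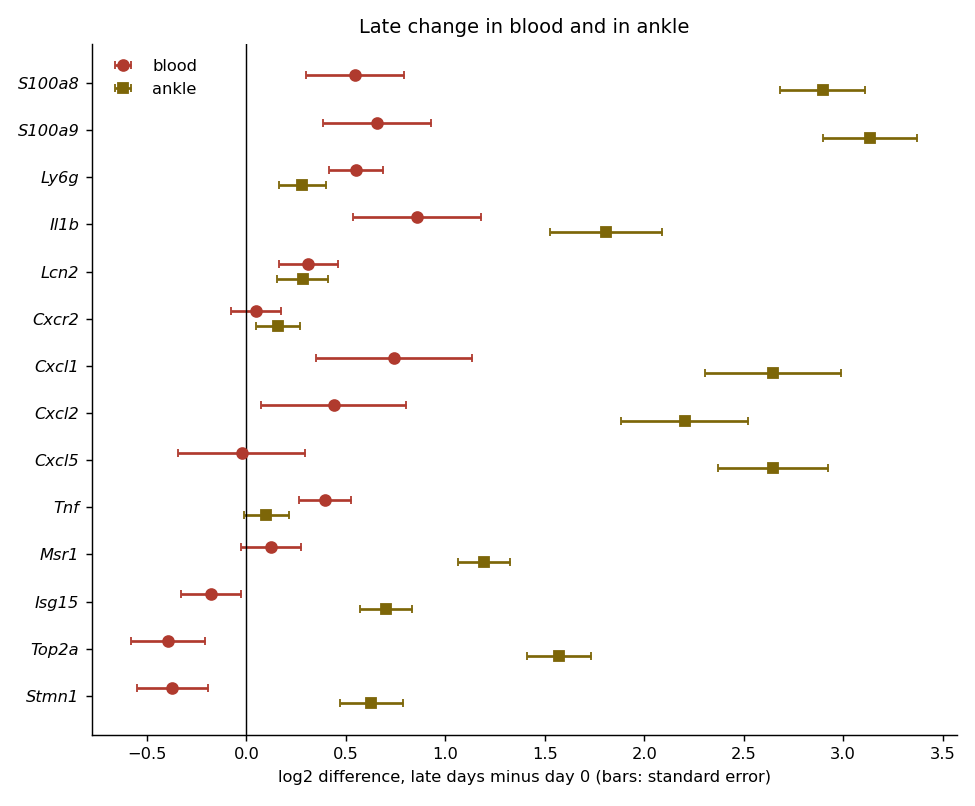
Log2 difference, days 7, 12 and 18 minus day 0, of 14 genes in blood (circles) and ankle (squares), with standard errors from the fit of both tissues. S100a8, S100a9 and the CXCR2 ligands lie at or under 0.74 in blood and at or above 2.20 in ankle, and Ly6g lies at 0.55 in blood and 0.28 in ankle. Of the ligands, only Cxcl2 was above background in blood.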

How the data were processed

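The authors deposited intensities from Affymetrix MG-U74Av2 arrays, made with RMA per the submitters' processing notes (version not given in the sources used here). Deposited intensity values were set to log2. Of 12488 probe sets, 10833 carried 1 gene symbol and gave 8251 genes, each by the probe set with the highest mean over 49 arrays; 396 with several symbols and 1259 with none or for controls were left out. Days 7, 12 and 18 were pooled and set against day 0 by limma 3.58.1 (R 4.3.3) (intensity trend, Benjamini-Hochberg adjustment over all genes, threshold 0.05). Array measures had exact permutation tests over 165 relabellings. Genes with the smallest p were named, up to 6 per direction and gene list, with CXCR2 and its ligands. The members and gene lists were chosen with earlier results of these data known. Labels call the blood samples biological replicates, and p-values measure the spread between them. The number of arrays limits precision. Scripts were tested on simulated data. Alternatives were normalization, scaling, filters, floor, probe-set rule, weights, covariate, replicate block and left-out arrays or days.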

Additional observations from a re-analysis of the deposited data

Results flagged for a closer look

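Of 102 genes and array measures described in the 8 late blood arrays, 5 had 1 array far from the rest by Dixon's criterion, and chance gives about 1 in 20. That rate does not hold for genes described for their spread over these same arrays, Alas2 among them. Cxcl1 and Tnf were high in day 18 replicate 2, at 7.12 and 7.18, against late values elsewhere of at most 5.61 and 6.36. Eomes was high in day 12 replicate 1, at 5.14 against at most 4.66. Alas2 was low in day 7 replicate 2, at 9.46 against at least 11.49. Prrx1 was low in day 12 replicate 1, at 3.35 against at least 3.54, all near the negative controls.

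For 18 of the 96 described genes the late change in blood differed from that in the ankle by an interaction test with limma adjustment. Over all genes, 373 of 8251 (4.52%) did. Saa3, Mmp13 and Mmp3 were among the genes described for the smallest p in this same comparison. The count of 18 is therefore partly set by the choice of genes. Blood minus ankle was -2.35 for S100a8, -2.48 for S100a9, -1.90 for Cxcl1, -1.76 for Cxcl2 and -2.67 for Cxcl5. It was -5.18 for Saa3, -4.10 for Mmp13 and -3.68 for Mmp3. It was -1.07 for Msr1, -0.88 for Isg15, -1.97 for Top2a, -0.999 for Stmn1, -1.50 for Ccn4, -0.41 for 2700097O09Rik and -0.74 for Sema4d. It was above 0 for Cyb561 (0.84), Retn (1.61) and Lyve1 (2.72). With 1 array left out at a time, the late difference in blood itself was 0.31 to 0.38 for Cyb561, 0.13 to 0.21 for Retn and 0.17 to 0.30 for Lyve1. The values for Retn and Lyve1 therefore rest mostly on the ankle and do not show a rise of that size in blood. Of 25 fits that each left out 1 array, the call was lost in 20 for 2700097O09Rik, in 6 each for Cxcl2 and Sema4d, in 5 for Cxcl1 and in 1 for Stmn1, always with the same sign, and in 0 for the other 13 genes.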

How the results depend on the processing

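The count of 0 genes in late against day 0, and of 0 listed genes, held under all 27 alternatives, but its smallest adjusted p ranged from 0.06859 with array weights to 0.8754 without day 18. Genes at an unadjusted p under 0.05 numbered 182 among genes above background alone and 418 without the dimmest genes (fewer genes tested), 275 without day 18, 1389 without day 7 and 2823 with array weights, and 300 to 1413 without 1 array, against 713 as reported. Array weights moved other counts: 2238 genes passed at day 12, 2333 at day 18, 436 among the late days, 1 in late against early and 3061 in blood against ankle; the cause was not tested. Leaving out 1 array at a time gave 0 to 2 genes at day 18, 0 to 3 among the late days and 218 to 846 in blood against ankle (lowest without blood day 0 replicate 3, highest without ankle day 0 replicate 2). With the replicate number as a block 705 genes passed in blood against ankle and 0 in late against day 0; same-numbered arrays correlated at -0.23 to 0.48 in their deviations (7 of 15 pairs over 0.1), and 3 of 11 arrays correlated best with their own number, so the numbers are not taken to pair the samples. The median of the mature neutrophil list stayed above 0 under these alternatives (0.06 to 0.60), and those of B cells (-0.23 to -0.09), T cells (-0.26 to -0.03) and MHC class I genes (-0.28 to -0.04) below 0. Over all genes above background the median as deposited was also below 0, at -0.08, close to that of T cells. Dim genes limit the rest: 4904 of 8251 genes were not above background.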
